A study of Homo sapiens with 12 samples.

Results

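Messenger RNA of 10 genes of the cadherin switch and of epithelial-mesenchymal transition (EMT) was followed in the human lung cancer lines H1703 and H1299, both of the non-small-cell type, with and without the histone deacetylase inhibitor SAHA. The genes are CDH1, EPCAM, ESRP1, CDH2, VIM, SNAI1, SNAI2, ZEB1, ZEB2 and TWIST1. They were picked by name as textbook EMT genes, and all 10 were found among the 58302 genes of the deposited tables. SAHA (vorinostat) is a hydroxamate that blocks zinc-dependent histone deacetylases. The 12 libraries form 4 groups of 3: H1703 with SAHA, H1703 with DMSO vehicle, H1299 with SAHA and H1299 with DMSO vehicle. Both lines are unmodified established lines, grown in RPMI-1640 with 10% serum. Treatment lasted 24 h, with 0.1% DMSO in the controls. The labels list doses of 0, 2.5, 10 and 40 µM, and they do not say which one the sequenced cells received, or whether it was the same in both lines. Separate cultures are not stated for the replicates, and the p-values below measure only the scatter of these libraries, which may be technical.

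In EMT, epithelial cells lose E-cadherin (CDH1), the calcium-dependent adhesion molecule of adherens junctions, and gain N-cadherin (CDH2) and the intermediate filament protein vimentin (VIM). SNAIL (SNAI1), SLUG (SNAI2), ZEB1 and ZEB2 are zinc finger proteins that bind E-box motifs, and TWIST1 is a basic helix-loop-helix protein. They are known for repressing CDH1 through corepressor complexes that contain histone deacetylases, while ESRP1, a splicing regulator, and EPCAM, an adhesion molecule, mark epithelial cells.

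Total counts per library ran from 14.4M to 19.4M, and the share of counts from mitochondrial genes was higher with SAHA in both lines: 9.57% ± 1.19 with SAHA against 5.88% ± 0.418 with DMSO in H1703, and 4.10% ± 0.121 against 2.12% ± 0.138 in H1299 (mean ± SD, n = 3 each). The labels call both lines epithelial. KRT8 and KRT18, keratins of simple epithelia, were the most abundant of 6 epithelial markers in H1299, and stood at 1230 ± 113 and 689 ± 60.2 counts-per-million (CPM) in H1703 with DMSO and 209.8 ± 3.62 and 382 ± 8.97 CPM in H1299 with DMSO (n = 3 each). All 6 had at least 10 counts in every H1703 library, but only 3 did in H1299 with DMSO, where KRT7 was at 6.10 CPM, against 2180 CPM in H1703 with DMSO, KRT19 had 1 count and CDH1 none. The 6 epithelial markers summed to 2946 to 3408 CPM with SAHA against 3974 to 4430 CPM with DMSO in H1703, and to 1355 to 1582 against 589 to 613 CPM in H1299. Summed markers of other cell types were lower: 8 fibroblast markers reached 114 to 128 CPM with SAHA and 65.4 to 75.3 CPM with DMSO in H1703, and 35.1 to 48.3 against 1.42 to 2.41 CPM in H1299, mostly COL1A1 and, in H1703, LUM, with LUM, FAP and POSTN at 0 in H1299 with DMSO. The 7 endothelial markers summed to 7.72 to 9.98 CPM with SAHA against 0.961 to 1.57 with DMSO in H1703, and to 16.4 to 21.6 against 1.65 to 1.98 CPM in H1299, with EMCN at 0 in all 4 groups. The 11 immune markers summed to 84.7 to 94.2 against 27.9 to 47.6 CPM in H1703 and to 23.0 to 27.3 against 21.3 to 42.1 CPM in H1299, mostly CD68 and CD14 in H1703 and CD68 in H1299, while CD3D, CD3E, CD2 and MS4A1 were at 0 in both DMSO groups and the pan-leukocyte marker PTPRC had 2 or 3 counts per group. What these markers contribute to the results below was not tested.

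With SAHA, SNAI1 and CDH2 rose and ZEB2 fell in both lines. CDH1 fell in H1703, the line that transcribed it, whereas H1299 read next to none with or without SAHA. VIM and TWIST1 fell and SNAI2 rose in H1299, and ZEB1 fell there too, under the limit given with its values. In H1703, 9 of the 10 genes passed the filter on low counts, and 2 rose, 2 fell and 5 were not called at an adjusted p below 0.05 (edgeR's quasi-likelihood test, Benjamini-Hochberg adjustment over all genes tested). SAHA moved most of the transcriptome, since 67.4% of the 17273 genes tested in H1703 were called, 34.7% higher and 32.6% lower, so a share of 4 in 9 is not above that background. In H1299, 8 of the 10 passed the filter, and 3 rose, 4 fell and 1 was not called, beside 63.8% called among 17277 genes (33.3% higher and 30.4% lower). The median log2 fold change of the genes that passed was -0.04 in H1703 and -0.51 in H1299, against 0.02 over all genes tested in each line. The tallies of longer gene lists below stand beside these same shares of all genes tested. Whether a list exceeds them was not tested.

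**Figure D1:**
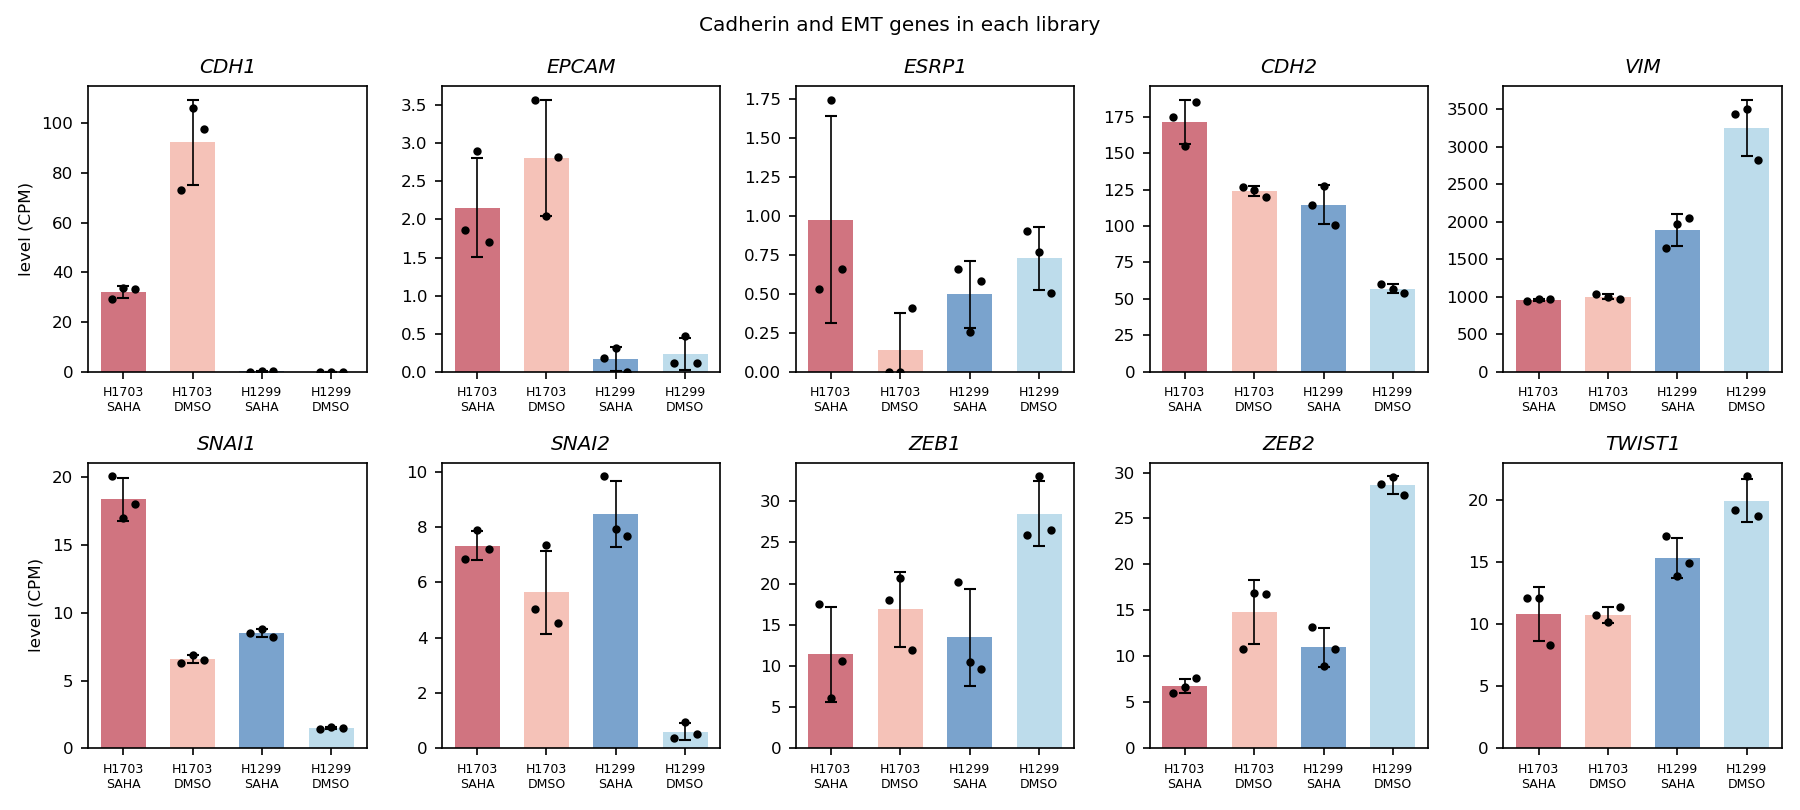
Levels in CPM (y axis, one scale per gene) of the 10 genes in H1703 with SAHA, H1703 with DMSO, H1299 with SAHA and H1299 with DMSO. Bars are means, error bars SD and points the 3 libraries of a group. The 3 SAHA libraries lie above the 3 DMSO libraries for SNAI1 and CDH2 in both lines, and below them for ZEB2 in both lines and for CDH1 in H1703.

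CDH1 (ENSG00000039068, chr16:68737225-68835548, GRCh38) encodes E-cadherin. In H1703 it had 29.3, 33.7 and 33.1 CPM with SAHA, against 72.9, 106 and 97.8 CPM with DMSO. All 3 SAHA libraries lay below the lowest DMSO library. The log2 fold change was -1.51 ± 0.14 (SE), a 2.84-fold lower level (edgeR adjusted p = 1.4e-05, n = 3 each). The adjusted p stayed at or below 0.00049 under all 14 settings, the main fit included. In such bulk samples, fewer cells of a type and less RNA per cell cannot be told apart. H1299 gave 2, 3 and 3 CDH1 counts with SAHA against 0, 0 and 0 with DMSO. A count of 0 in 47.3M allows up to 3 counts over the group, 0.0586 CPM. The observed SAHA level was 2.75 times that floor, a ratio that leaves out the counting error of the 8 SAHA counts. These few counts did not pass the filter, and without a filter the adjusted p was 0.0437 (0.00213 to 0.0437 over 2 alternatives). Even so, H1299 with SAHA stayed far below H1703, at 0.119 to 0.190 CPM.

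CDH2 (ENSG00000170558, chr18:27950966-28177446) encodes N-cadherin, which replaces E-cadherin at the junctions of mesenchymal and neural cells. In H1703 it had 175, 155 and 185 CPM with SAHA, against 127, 125 and 120.2 CPM with DMSO. H1299 had 115, 128 and 101 CPM with SAHA, against 60.0, 57.1 and 54.4 CPM with DMSO. The groups did not overlap in either line. CDH2 rose 1.40-fold in H1703 (log2 0.49 ± 0.08, edgeR adjusted p = 0.00061, n = 3 each) and 1.93-fold in H1299 (log2 0.95 ± 0.10, adjusted p = 4.4e-05, n = 3 each). The rise was smaller in H1703 by 0.53 ± 0.13 on the log2 scale (edgeR adjusted p = 0.0064 for the difference between lines). Here and below, differences between lines come from 1 fit over all 12 libraries. They need not equal the gap between the effects fitted in each line alone. Among 10770 genes whose mean log2 CPM was at least 3, those whose log2 levels over the 12 libraries ran closest to those of CDH2 were SH3BP4, with a root mean square difference of 0.059 log2 units after centring, and FAM160A2, with 0.122.

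Set per kilobase of the Ensembl canonical transcript, CDH1 made up 12.3% to 15.3% of the cadherin pair (CDH1 plus CDH2) in H1703 with SAHA and 32.4% to 41.5% in H1703 with DMSO. The means were 13.5% ± 1.59 and 38.1% ± 4.95 (SD, n = 3 each). In H1299 CDH1 made up 0.119% ± 0.0294 of the pair with SAHA and 0% with DMSO (n = 3 each). N-cadherin mRNA was thus the larger part per length in each of the 12 libraries. These shares are given as a description of the 2 genes tested above, and they depend on the lengths used. The deposited FPKM rest on other lengths and make the CDH1 share smaller. In H1703, CDH1 averaged 1.97 FPKM with SAHA and 6.04 with DMSO, against 23.9 and 18.3 FPKM for CDH2.

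The catenins and other partners of the cadherin tail were taken as a list of 10 genes, and all were tested. In H1703, 3 rose, 1 fell and 6 were not called, with 2 called lower when either H1703 DMSO replicate 3 or H1703 SAHA replicate 3 was left out. In H1299, 6 rose, 1 fell and 3 were not called. JUP encodes plakoglobin, which binds the cadherin tail in desmosomes and adherens junctions. It fell in H1703, to 238 ± 7.83 CPM with SAHA against 566 ± 19.6 CPM with DMSO (log2 -1.23 ± 0.07), and rose in H1299, to 45.8 ± 5.23 against 6.99 ± 0.874 CPM (log2 2.66 ± 0.14; SD, n = 3 each). ARVCF, a p120-catenin relative, rose in H1703 (log2 1.57 ± 0.16), as did AFDN, afadin (0.52 ± 0.12). Both also rose in H1299 (1.43 ± 0.13 and 0.46 ± 0.10). In H1299, CTNNA2, the neural alpha-catenin, rose by log2 2.41 ± 0.19, whereas the p120-related PKP4 fell by 0.67 on that scale. Neither CTNNA2 nor PKP4 was called in H1703 (-0.24 ± 0.26 and -0.10 ± 0.10).

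EPCAM (ENSG00000119888, chr2:47345158-47387601), the epithelial adhesion molecule, was scarce. In H1703 it had 28, 50 and 26 counts with SAHA against 56, 35 and 41 with DMSO. The groups overlapped, and the log2 fold change of -0.35 ± 0.30 was not called (adjusted p = 0.320, n = 3 each, edgeR). H1299 gave 3, 5 and 0 counts with SAHA and 2, 8 and 2 with DMSO, too few to test. The broader list of 24 epithelial effector genes (claudins, keratins, polarity proteins and membrane protease inhibitors) held 19 tested genes in H1703, of which 10 rose, 6 fell and 3 were not called, and 15 in H1299, of which 9 rose, 2 fell and 4 were not called. Its median log2 fold change was 0.34 in H1703 and 1.16 in H1299. KRT19, a keratin of simple epithelia, rose in H1703 to 308.5 ± 31.9 CPM with SAHA against 15.9 ± 1.93 CPM with DMSO, and SPINT1, an inhibitor of membrane serine proteases, rose to 26.5 ± 3.35 against 0.855 ± 0.275 CPM (n = 3 each). KRT7, another such keratin, fell there, to 613 ± 81.4 against 2180 ± 120.1 CPM, and was not called in H1299 (log2 -0.11 ± 0.18). SPINT1 and KRT19 also rose in H1299, though only to 2.94 ± 0.132 and 0.859 ± 0.422 CPM. In H1299 the lipid synthesis enzyme CDS1 (log2 3.02 ± 0.16) and the polarity protein LLGL2 (2.26 ± 0.12) rose, and AP1M2, the epithelial subunit of a clathrin adaptor, fell by 0.96. In H1703, CDS1 also rose (2.74 ± 0.17) and AP1M2 also fell (-3.42 ± 0.28), while LLGL2 was not called (0.03 ± 0.08). CDH1 thus fell in H1703 while 10 of the 19 tested genes of this list rose and 6 fell. Among all genes tested there, 34.7% rose and 32.6% fell.

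VIM (ENSG00000026025, chr10:17228259-17237593) encodes vimentin, the type III intermediate filament of mesenchymal cells. In H1703 it had 942, 972 and 967 CPM with SAHA, against 1032, 999.9 and 967 CPM with DMSO. The highest SAHA library lay above the lowest DMSO library, and the log2 fold change of -0.04 ± 0.06 was not called (adjusted p = 0.587, n = 3 each, edgeR). In H1299 it had 1647, 1973 and 2049 CPM with SAHA, against 3436, 3498 and 2824 CPM with DMSO. No SAHA library reached the lowest DMSO library there, and VIM fell 1.79-fold (log2 -0.84 ± 0.12, adjusted p = 0.00022, n = 3 each). The effect differed between lines by 0.72 ± 0.14 on the log2 scale, H1703 minus H1299 (adjusted p = 0.00099). A pair of antisense genes, VIM-AS1 and AL133415.1, overlaps VIM in the tables. They reached at most 179 and 108 counts in a library, against at least 14085 counts of VIM, and neither was called with SAHA in either line, although the adjusted p over the alternatives ran from 0.0192 to 0.320 for VIM-AS1 in H1299, and for AL133415.1 from 0.0285 to 0.211 in H1299 and from 0.0483 to 0.276 in H1703. Closest to VIM across the 12 libraries were the pseudogene PHC1P1, with a root mean square difference of 0.150 log2 units, and HMGA1, with 0.158.

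Of 5 type III and related filament genes other than VIM, 4 rose and 1 fell in H1703, while in H1299 3 of 4 tested genes rose, 1 was not called and none fell (0 also at an unadjusted p below 0.05 and by DESeq2). DES, the desmin of muscle, had 86, 115 and 96 counts in H1703 with SAHA against 0 in all 3 DMSO libraries, which is 98.8 times a floor of 3 counts over the group. In H1299 it had 232, 188 and 284 counts with SAHA against 0, 0 and 0, which is 242 times the floor there. PRPH, the peripherin of neurons, rose to 12.3 ± 0.711 CPM with SAHA against 1.02 ± 0.391 CPM with DMSO in H1703, and to 11.5 ± 0.975 against 0.861 ± 0.0923 CPM in H1299 (n = 3 each). SYNM, synemin, fell in H1703 by 1.83 on the log2 scale, and was the gene not called in H1299 (0.19 ± 0.11, adjusted p = 0.164).

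Of 22 mesenchymal effector genes (matrix proteins, integrins, contractile proteins and matrix enzymes), 20 were tested in H1703, where 8 rose, 8 fell and 4 were not called, and 17 in H1299, where 12 rose, 3 fell and 2 were not called. The median log2 fold change was 0.06 in H1703 and 1.15 in H1299. In H1703, LOXL2, a collagen cross-linking enzyme, rose to 620.2 ± 50.9 CPM with SAHA against 187 ± 8.51 CPM with DMSO, and FN1, fibronectin, rose to 1300.4 ± 88.7 against 472 ± 11.4 CPM (n = 3 each). Both also rose in H1299 (log2 0.58 ± 0.10 and 1.51 ± 0.14). In H1299, COL1A1, a chain of collagen I, rose to 38.3 ± 6.85 CPM with SAHA against 1.35 ± 0.451 CPM with DMSO (n = 3 each). COL1A1 was not called in H1703 (log2 0.05 ± 0.09). The receptor tyrosine kinase AXL fell in both lines, by 0.99 on the log2 scale in H1703 and by 2.21 in H1299. In H1299, vimentin mRNA thus fell while 12 of the 17 tested genes of this list rose and 3 fell. Among all genes tested there, 33.3% rose and 30.4% fell.

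**Figure D2:**
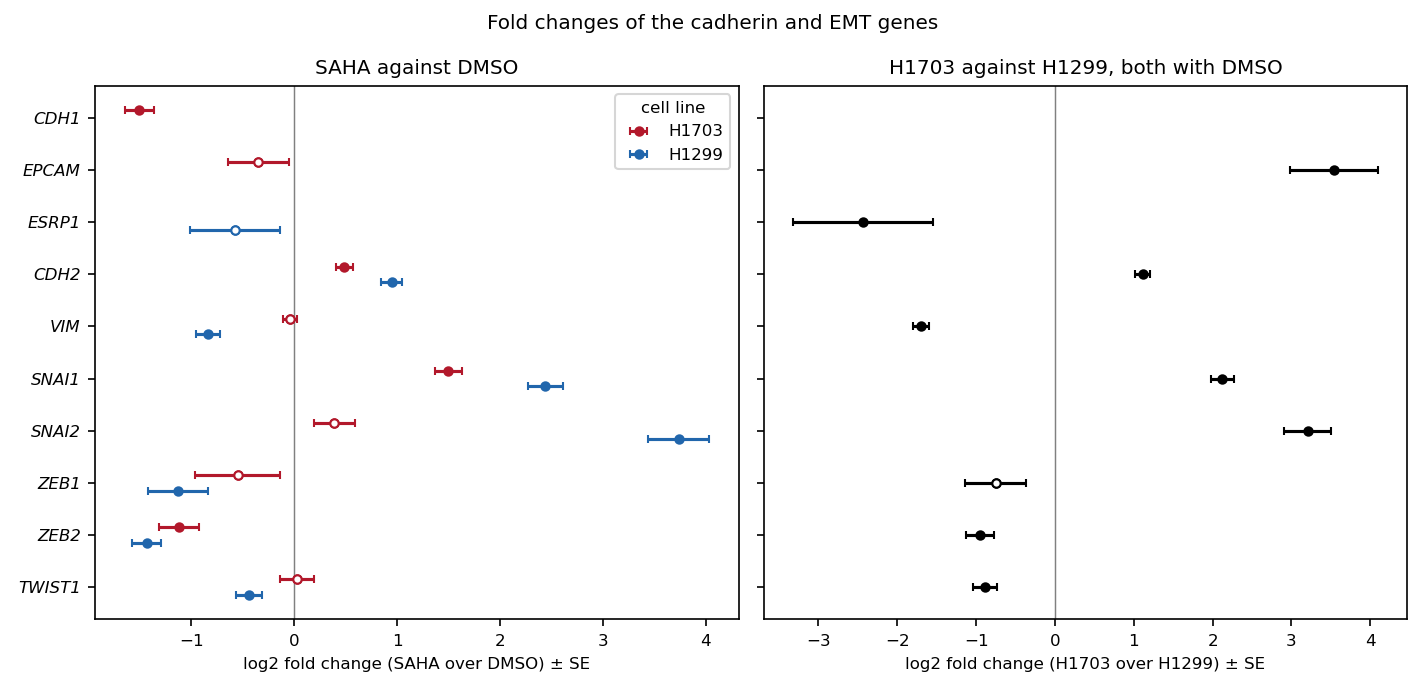
Log2 fold changes with their standard errors (x axes) of the 10 genes (y axis), for SAHA over DMSO in H1703 and H1299 on the left and for H1703 over H1299 with DMSO on the right. Filled points had an adjusted p below 0.05 and open points did not. A gene that was not tested has no point, and CDH1 is not drawn on the right because H1299 with DMSO had no count. SNAI1 lies right of 0 in both lines at 1.50 and 2.44, and ZEB2 left of 0 at -1.12 and -1.44.

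SNAI1 (ENSG00000124216, chr20:49982999-49988886), the SNAIL repressor, had 20.1, 17.0 and 18.1 CPM in H1703 with SAHA, against 6.31, 6.87 and 6.52 CPM with DMSO. In H1299 it had 8.53, 8.82 and 8.19 CPM with SAHA, against 1.45, 1.59 and 1.47 CPM with DMSO. The groups were far apart and narrow in both lines. SNAI1 rose 2.83-fold in H1703 (log2 1.50 ± 0.13, edgeR adjusted p = 5.9e-06, n = 3 each) and 5.43-fold in H1299 (log2 2.44 ± 0.17, adjusted p = 3.1e-06, n = 3 each). The rise was smaller in H1703 by 1.01 ± 0.19 on the log2 scale (adjusted p = 0.00092 for the difference). SNAI1 averaged 8.51 ± 0.314 CPM in H1299 with SAHA and 6.57 ± 0.285 CPM in H1703 with DMSO (n = 3 each), groups that were not tested against each other.

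SNAI2 (ENSG00000019549, chr8:48917768-48921740), the SLUG repressor, had 6.85, 7.89 and 7.22 CPM in H1703 with SAHA, against 5.04, 7.34 and 4.53 CPM with DMSO. The second DMSO library lay within the SAHA range. The log2 fold change of 0.39 ± 0.20 was not called (adjusted p = 0.109, n = 3 each, edgeR), but without that library it was 0.62 (adjusted p = 0.0144, and 0.0144 to 0.327 over 14 settings with the main fit). In H1299 SNAI2 had 165, 125 and 131 counts with SAHA against 6, 16 and 9 with DMSO, and it rose 13.3-fold (log2 3.74 ± 0.30, adjusted p = 6.9e-06, n = 3 each). The levels with SAHA were 7.32 ± 0.528 CPM in H1703 and 8.48 ± 1.19 CPM in H1299, whereas those with DMSO were 5.64 ± 1.50 CPM and 0.605 ± 0.303 CPM (n = 3 each). The effect was smaller in H1703 by 3.42 ± 0.38 on the log2 scale (adjusted p = 9.1e-06), the smallest adjusted p among the 10 genes for that difference.

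TWIST1 (ENSG00000122691, chr7:19020991-19117672) had 12.1, 12.1 and 8.34 CPM in H1703 with SAHA, against 10.7, 10.1 and 11.4 CPM with DMSO. Its log2 fold change of 0.03 ± 0.17 was not called (adjusted p = 0.880, n = 3 each, edgeR) and took a negative sign with total counts as the only scaling (-0.073) and without DMSO replicate 2 or SAHA replicate 1 or 2 (-0.021 to -0.059). In H1299 TWIST1 had 17.1, 13.9 and 14.9 CPM with SAHA, against 19.2, 21.9 and 18.7 CPM with DMSO. The groups did not overlap there, and the level fell 1.35-fold (log2 -0.44 ± 0.13, adjusted p = 0.0126, n = 3 each). A difference between lines was not called (0.40, edgeR adjusted p = 0.172), though without H1703 SAHA replicate 3 it was (0.55, adjusted p = 0.0306, and 0.0306 to 0.335 over 19 settings with the main fit).

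SNAIL, SLUG and TWIST1 proteins are short-lived, and a list of 15 kinases, ubiquitin ligases and deubiquitinases known to act on them held 14 tested genes per line. In H1703, 3 rose and 3 fell, with 5 called lower when total counts were the only scaling, and in H1299, 6 rose and 4 fell, with 3 called higher without H1299 DMSO replicate 1. SIAH1, a ubiquitin ligase, fell in H1703 by 1.12 on the log2 scale, and the F-box proteins FBXL14 and FBXW7 rose by 0.73 ± 0.11 and 0.57 ± 0.12. In H1299, SIAH1 also fell (-0.58 ± 0.13) and FBXW7 also rose (0.64 ± 0.13), whereas FBXL14 fell (-0.41 ± 0.09). In H1299, GSK3B, the kinase that marks SNAIL for degradation, rose by 0.70 ± 0.09, LATS2 by 0.62 ± 0.10, and FBXO11 fell by 0.53. In H1703, GSK3B also rose (0.39 ± 0.09) and FBXO11 also fell (-0.78 ± 0.12), while LATS2 was not called (-0.26 ± 0.12). Protein levels were not measured.

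Another list took 21 further transcription factors tied to EMT. In H1703, 20 were tested and 4 rose, 10 fell and 6 were not called, with a median log2 fold change of -0.34. In H1299, 18 were tested and 6 rose, 8 fell and 4 were not called, with a median of -0.11. HMGA2, a chromatin-architectural protein, fell in both lines, to 16.4 ± 1.83 CPM with SAHA against 56.4 ± 4.87 CPM with DMSO in H1703 and to 124 ± 6.58 against 619.7 ± 13.6 CPM in H1299 (n = 3 each). The AP-1 subunit FOSL1 fell in H1299 by 3.54 on the log2 scale and also fell in H1703 (-1.63 ± 0.18). The forkhead factor FOXQ1 fell in H1703 by 2.06 but rose in H1299 (3.03 ± 0.44), to 1.54 CPM with SAHA. MSX2, a homeobox factor, rose by 2.67 ± 0.07 in H1703 and by 1.61 ± 0.23 in H1299. SOX4 rose by 1.83 ± 0.10 in H1299 and by 1.07 ± 0.08 in H1703.

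ZEB1 (ENSG00000148516, chr10:31318495-31529814) and ZEB2 (ENSG00000169554, chr2:144364364-144524583) are a pair of related repressors with zinc fingers at both ends. In H1703, ZEB2 had 6.05, 6.62 and 7.61 CPM with SAHA, against 10.8, 16.9 and 16.8 CPM with DMSO. H1299 had 13.2, 9.01 and 10.8 CPM with SAHA, against 28.8, 29.5 and 27.6 CPM with DMSO. Each SAHA library lay below each DMSO library of its line. ZEB2 fell 2.17-fold in H1703 (log2 -1.12 ± 0.20, edgeR adjusted p = 0.00066, n = 3 each) and 2.70-fold in H1299 (log2 -1.44 ± 0.14, adjusted p = 2.8e-05, n = 3 each), and a difference between lines was not called (0.25, adjusted p = 0.499).

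ZEB1 scattered more between libraries. In H1703 it had 17.6, 6.15 and 10.6 CPM with SAHA, against 18.0, 20.7 and 11.9 CPM with DMSO. The H1299 values were 20.2, 10.5 and 9.65 CPM with SAHA, against 25.9, 33.1 and 26.5 CPM with DMSO. Replicate 1 was the highest SAHA library in both lines, and the groups overlapped in H1703 but not in H1299. ZEB1 fell 2.19-fold in H1299 (log2 -1.13 ± 0.29, edgeR adjusted p = 0.0122, n = 3 each), a call that was lost with no filter on low counts (adjusted p = 0.0530, and 5.9e-05 to 0.0530 over 14 settings with the main fit). In H1703 the log2 fold change of -0.55 ± 0.42 was not called (edgeR adjusted p = 0.287), although without SAHA replicate 1 it was (-1.004, adjusted p = 0.0337, and 0.0337 to 0.535 over 14 settings with the main fit). A difference between lines was not called (0.51, adjusted p = 0.523). ZNF131 and VBP1 had the profiles closest to ZEB1 over the 12 libraries, with root mean square differences of 0.333 and 0.366 log2 units.

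ZEB1-AS1, a non-coding RNA on the opposite strand whose locus overlaps the start of ZEB1, rose in both lines. It had 7.88 ± 0.366 CPM with SAHA against 2.25 ± 0.522 CPM with DMSO in H1703 (log2 1.83 ± 0.20, edgeR adjusted p = 2.6e-05), and 10.7 ± 2.52 against 4.85 ± 0.661 CPM in H1299 (log2 1.08 ± 0.20, adjusted p = 0.00106; SD, n = 3 each). The labels name a directional kit in one passage and an un-stranded library in another. Without strand, reads of an antisense gene and of its partner cannot be told apart in the stretch they share, so values of both are uncertain. The pseudogene SPTLC1P1 lies within ZEB1 and reached at most 96 counts in a library. It fell in H1299, to 2.29 ± 0.696 CPM with SAHA against 4.02 ± 1.22 CPM with DMSO (log2 -0.87 ± 0.29, edgeR adjusted p = 0.0272, and 0.014 to 0.0958 over the alternatives; SD, n = 3 each), and was not called in H1703 (0.00 ± 0.31, adjusted p = 0.993).

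**Figure D3:**
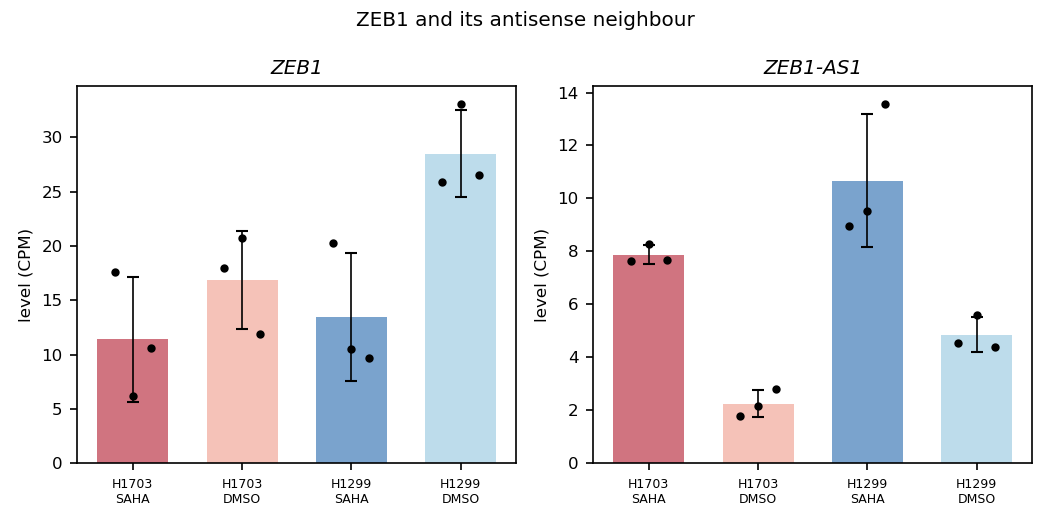
Levels in CPM (y axes) of ZEB1 on the left and of its antisense neighbour ZEB1-AS1 on the right in the 4 groups. Bars are means, error bars SD and points the 3 libraries of a group. With SAHA, ZEB1-AS1 averaged 7.88 CPM in H1703 and 10.7 CPM in H1299, against 2.25 and 4.85 CPM with DMSO.

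The 250 bases before one ZEB1 start are shown because the ZEB1-AS1 locus covers this stretch on the other strand, and those before the VIM start because VIM is the most abundant of the 10 genes. Such cover is not particular to this window. ZEB1-AS1 also covers other ZEB1 windows, and the VIM-AS1 locus covers the VIM window. Both windows shown come from RefSeq (GRCh38.p14) and lie on the plus strand, at chr10:31318167-31318416 and chr10:17227991-17228240. Windows of 4 of the 10 genes (ZEB2, VIM, ZEB1 and CDH2) were taken from the promoter table. Whether it holds windows of the other genes is left open here. Capitals mark CACCTG, the E-box bound by SNAIL and ZEB proteins, and GGGCGG, the GC box bound by Sp1-family factors, each searched on both strands with no overlap between them.
ZEB1: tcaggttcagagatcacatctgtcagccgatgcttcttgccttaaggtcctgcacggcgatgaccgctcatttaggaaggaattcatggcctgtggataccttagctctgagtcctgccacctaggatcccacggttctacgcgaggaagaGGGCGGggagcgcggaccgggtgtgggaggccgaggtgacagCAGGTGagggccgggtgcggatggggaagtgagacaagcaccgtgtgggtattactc
VIM: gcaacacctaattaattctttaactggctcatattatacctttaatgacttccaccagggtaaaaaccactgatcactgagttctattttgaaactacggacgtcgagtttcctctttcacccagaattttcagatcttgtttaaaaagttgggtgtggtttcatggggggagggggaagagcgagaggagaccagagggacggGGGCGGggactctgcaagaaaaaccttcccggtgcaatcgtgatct
The ZEB1 window holds 1 E-box, 57 bases before the start and read as CAGGTG on this strand, and 1 GC box at 99 bases. The VIM window holds a GC box at 46 bases and no CACCTG on either strand. Of 35116 RefSeq windows of this length, 17.5% hold CACCTG and 42.6% hold GGGCGG, and 2 of the 7 ZEB1 windows in the table hold CACCTG. A match describes the letters only.

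The miR-200 family of microRNAs is known for pairing with ZEB1 and ZEB2 transcripts and for being repressed by the ZEB proteins in turn. One mature member of each of its 2 seeds is shown from RefSeq, with bases 2 to 8 in capitals.
hsa-miR-200a-3p: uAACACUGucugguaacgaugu
hsa-miR-200c-3p: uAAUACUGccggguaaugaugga
The seeds differ in 1 base. Libraries of polyadenylated RNA do not measure mature microRNAs, and the genes of the 5 family members held 1 count in all 12 libraries together, that of MIR200B. The host gene MIR200CHG also had 1 count, in H1703 with DMSO, so the files hold no measurement of this family to set beside the ZEB values.

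Corepressors, histone methyltransferases and other enzymes that work with SNAIL and ZEB proteins were taken as a list of 17 genes, all tested. In H1703, 10 fell, 2 rose and 5 were not called, with a median log2 fold change of -0.41. One rose without H1703 DMSO replicate 1 or 2, or with total counts as the only scaling. In H1299, 10 fell and none rose by edgeR's test, with a median of -0.40, while 1 was higher at an unadjusted p below 0.05 and 1 by DESeq2. DNMT1, the maintenance DNA methyltransferase, fell in both lines, to 50.7 ± 2.05 CPM with SAHA against 163 ± 11.8 CPM with DMSO in H1703 and to 112 ± 10.2 against 349 ± 7.54 CPM in H1299 (n = 3 each). CTBP1, a corepressor that binds ZEB proteins, fell in H1703 by 1.07 on the log2 scale and also fell in H1299 (-1.15 ± 0.10). SUZ12, a Polycomb subunit, fell 2.47-fold in H1299 and also fell in H1703 (log2 -0.91 ± 0.11). HDAC3, a deacetylase of the class that SAHA blocks, rose in H1703, to 131 ± 32.2 CPM with SAHA against 45.5 ± 8.73 CPM with DMSO. It was not called in H1299 (log2 0.41 ± 0.16, edgeR adjusted p = 0.0521). The deacetylases HDAC1 and HDAC2 of this list were not called in either line.

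ESRP1 (ENSG00000104413, chr8:94641074-94707466), the epithelial splicing regulator, was the scarcest of the 10 genes in H1703. It had 8, 30 and 10 counts there with SAHA against 0, 0 and 6 with DMSO. Replicate 2 alone held most of the SAHA counts, and the gene did not pass the filter. Without a filter its log2 fold change was 2.87 (adjusted p = 0.0495; 0.00426 to 0.0832 over the 5 alternatives that tested it). H1299 gave 11, 4 and 10 counts with SAHA against 15, 13 and 9 with DMSO, and the log2 fold change of -0.58 ± 0.44 was not called (adjusted p = 0.274, n = 3 each, edgeR). The effect differed between lines by 3.40 ± 1.12 on the log2 scale (adjusted p = 0.0301), a call that was lost with the replicate number as a block (3.38, adjusted p = 0.0587) and without any 1 of 6 libraries: H1703 SAHA replicate 2, DMSO replicate 1 or 2 of either line, or H1299 SAHA replicate 2 (adjusted p = 0.0551 to 0.0941). H1703 DMSO replicate 3 held all ESRP1 counts of its group, and without it the difference was 7.57 on the log2 scale.

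Upstream epithelial transcription factors and ESRP2 formed a list of 16 genes. In H1703, 9 were tested and 5 rose, 2 fell and 2 were not called, with a median log2 fold change of 0.73. In H1299, 7 were tested and 5 rose, 2 were not called and none fell (0 also at an unadjusted p below 0.05 and by DESeq2), with a median of 1.00. KLF4 rose in H1703 to 26.2 ± 4.83 CPM with SAHA against 5.06 ± 0.954 CPM with DMSO (n = 3 each). KLF4 also rose in H1299 (log2 0.67 ± 0.20). EHF, an epithelial ETS factor, fell in H1703 by 1.26 on the log2 scale. GRHL1 and KLF5 rose in H1299, by 1.76 ± 0.17 and 1.00 ± 0.12. In H1703, GRHL1 also rose (1.93 ± 0.22) and KLF5 was not called (0.07 ± 0.09). Of the other splicing regulators linked to EMT, 9 of 11 were tested per line: 2 rose and 2 fell in H1703, with 4 lower without H1703 SAHA replicate 3, and 1 rose and 5 fell in H1299, with 2 higher without any 1 of 4 libraries (H1299 DMSO replicate 1, 2 or 3 or SAHA replicate 1). SRSF1 fell by 1.24 on the log2 scale in H1703 and by 1.12 in H1299, and QKI, an RNA-binding protein known for promoting circular RNAs in EMT, fell by 0.61 and 1.12. RBM47, an epithelial RNA-binding protein, rose by 0.34 ± 0.08 in H1703 and by 1.62 ± 0.32 in H1299.

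With DMSO, the lines stood apart for 9 of the 10 genes. H1703 was higher than H1299 for CDH1, EPCAM, CDH2, SNAI1 and SNAI2 and lower for ESRP1, VIM, ZEB2 and TWIST1, in a comparison where 66.5% of 19105 genes were called, 34.3% higher and 32.2% lower. This comparison uses the same DMSO libraries as both SAHA comparisons. CDH1 had 4387 counts over the 3 H1703 libraries against 0 in H1299, which is 1579 times a floor of 3 counts over the group. EPCAM was higher in H1703 by log2 3.54 ± 0.56 (edgeR adjusted p = 6.6e-05, and log2 3.20 to 4.50 over 20 settings with the main fit), SNAI2 by 3.21 ± 0.30 (3.0e-07), SNAI1 by 2.12 ± 0.15 (1.3e-08) and CDH2 by 1.12 ± 0.10 (1.3e-07). H1703 thus carried more mRNA of both cadherins and of both SNAI repressors.

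VIM was lower in H1703 by 1.70 ± 0.10 on the log2 scale (edgeR adjusted p = 2.2e-09), ZEB2 by 0.95 ± 0.18 (0.00027) and TWIST1 by 0.89 ± 0.15 (0.00012). ESRP1, with 0, 0 and 6 counts in H1703 against 15, 13 and 9 in H1299, was lower in H1703 (log2 -2.43 ± 0.89, adjusted p = 0.0266), but the call was lost without H1703 DMSO replicate 1 or 2 or H1299 DMSO replicate 1 or 2 (adjusted p = 0.0545 to 0.0927), and without H1703 DMSO replicate 3 the log2 value was -6.59. ZEB1 was not called (-0.75 ± 0.38, adjusted p = 0.107), yet DESeq2 called it (adjusted p = 0.0387), as did the 6 DMSO libraries fitted alone (adjusted p = 0.0130). The wider lists did not split into opposite directions, since among epithelial effectors 13 of 20 tested genes were higher in H1703 and 1 lower, and among mesenchymal effectors 15 of 21 were higher and 3 lower. Over all genes tested, 34.3% were higher and 32.2% lower.

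The SAHA effect itself differed between lines for 6 of the 10 genes, beside 34.9% of 19105 genes (13.7% more positive in H1703 and 21.2% more negative). It was more positive in H1703 for VIM and ESRP1 and more negative for CDH1, CDH2, SNAI1 and SNAI2. The split over all genes depended on the scaling. Of the called genes, 39.31% were more positive in H1703 with TMM, against 45.41% with RLE. For CDH1, the fitted difference rests on a group without counts and is therefore no measure of size. EPCAM, ZEB1, ZEB2 and TWIST1 were not called for a difference. ESRP1 rests on 6 libraries as given with its values, so that without any 1 of them only VIM was called more positive in H1703.

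Per kilobase of canonical transcript, VIM was the most abundant of the 10 in each group, at 446 ± 7.49 CPM per kb in H1703 with SAHA, 464 ± 15.1 in H1703 with DMSO, 877 ± 99.1 in H1299 with SAHA and 1510.1 ± 173 in H1299 with DMSO (SD, n = 3 each). CDH2 came next in each group, at 42.7, 30.9, 28.5 and 14.2 CPM per kb in that order of groups. In H1703 with DMSO the rest ran from CDH1 (19.2) through TWIST1 (6.59) and SNAI1 (3.85) to ZEB1, SNAI2, EPCAM and ZEB2 (2.84 to 1.60, neighbours overlapping) and ESRP1 (0.0365). With SAHA, SNAI1 stood above CDH1 in H1703, at 10.8 against 6.66 CPM per kb, and CDH1 overlapped TWIST1 (6.65).

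In H1299 with DMSO the order below CDH2 was TWIST1 (12.2), ZEB1 (4.80), ZEB2 (3.09) and SNAI1 (0.882), followed by SNAI2, ESRP1 and EPCAM (0.278 to 0.152, neighbours overlapping) and CDH1 at 0. With SAHA, SNAI1 (4.99) and SNAI2 (3.89) stood above ZEB1 (2.27) and ZEB2 (1.19) in H1299. Among these 4 repressors, the ranking by mRNA per length was therefore ZEB1 and ZEB2 over SNAI1 and SNAI2 with DMSO in that line, and the reverse with SAHA. TWIST1 stood above all 4 both with DMSO (12.2) and with SAHA (9.38). With the gene lengths implied by the deposited FPKM values, SNAI1 stood above ZEB2 in H1299 with DMSO already, whereas the order with SAHA was unchanged for these 4 genes.

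**Figure D4:**
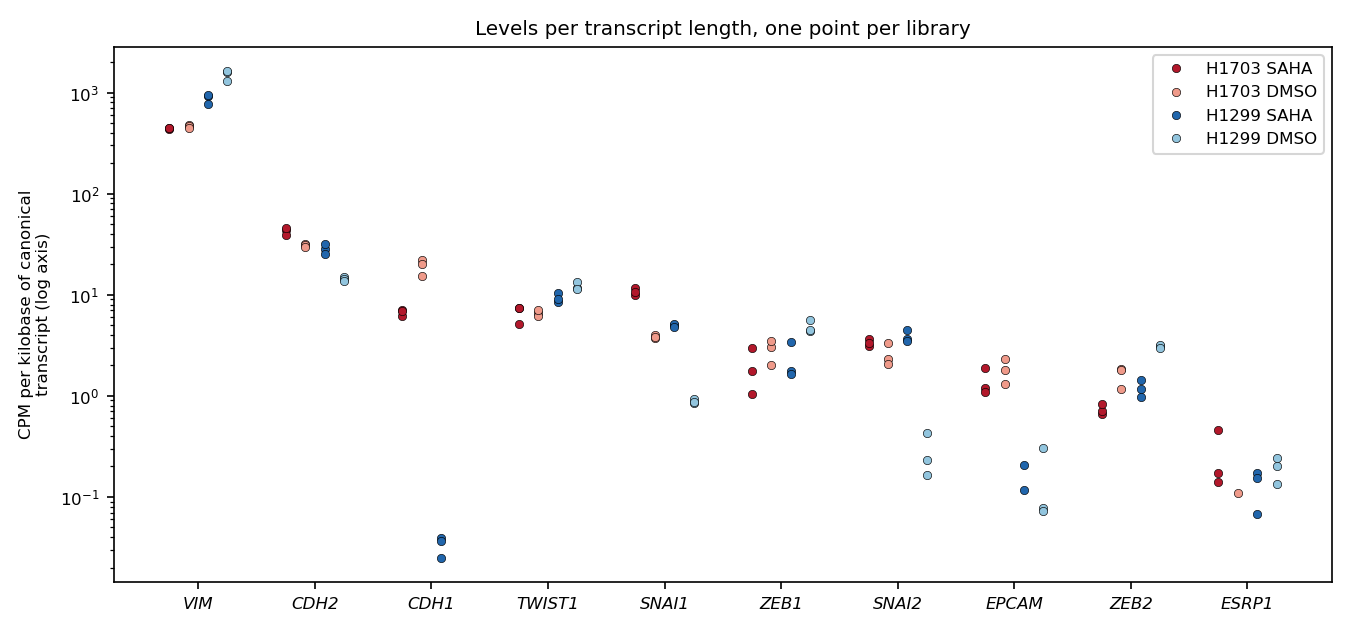
Level in CPM per kilobase of canonical transcript (log y axis) of the 10 genes (x axis), with 1 point per library and colours for the 4 groups. Libraries at 0 are not drawn, among them all 3 CDH1 values of H1299 with DMSO. VIM is the highest and CDH2 the next in each group, and in H1299 SNAI1 and SNAI2 stand below ZEB2 with DMSO and above it with SAHA.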

How the data were processed

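Gene expression was measured by sequencing of polyadenylated RNA in 12 libraries of 2 cell lines. The authors deposited 1 table per line, which per the file headers gives raw counts and FPKM values of 58302 genes for each library. The submitters' processing notes name HISAT2 2.1.0, StringTie 1.3.3b, fastp, FastQC 0.11.9, edgeR 3.30.3 and GRCh38, without the role of each. The counting tool, its annotation and its strand setting were not given in the sources used here. Each deposited FPKM value equals the count over the column total and 1 length per gene (within 1% in 100.0% of 180885 values). Control columns carry a shorthand and were taken as DMSO, the other group of each line.

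The test of the counts was edgeR 4.0.16 (R 4.3.3). Low counts were removed with filterByExpr (at least 10 counts, and 15 in total), libraries scaled by TMM, and robust quasi-likelihood fits adjusted by Benjamini and Hochberg over every gene tested. Each line was fitted alone for SAHA, and 1 fit over 12 libraries gave the DMSO comparison and the line difference. Standard errors are the log2 fold change over the root of F. Levels are CPM with TMM scaling over 12 libraries, set per kilobase of the Ensembl canonical transcript (GENCODE v44) to compare genes. Floors cover counting error only, that of the group without counts and not of the group set against it. The edgeR fits with these settings were tried on simulated counts with planted fold changes, and the other steps were not.

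The 10 genes and the 12 other lists were chosen with earlier results of these data known. From each list, the text names the 2 genes of lowest adjusted p whose mean log2 CPM was at least 1, plus 1 called gene of the opposite direction; some genes that meet this rule are not reported here. Alternatives were RLE or total-count scaling, DESeq2 1.42.0, no filter, 1 CPM in 3 libraries, the replicate block, other sets of libraries in the fit and each library left out. The labels carry a batch tag with the replicate number, but same-numbered libraries did not deviate together: correlations of their deviations from group means ran from -0.073 to 0.054 over 18 pairs, against -0.051 to 0.108 for different numbers. Replicate libraries differed by more than sampling noise, with a chi-square of 10.9 to 24.7 per degree of freedom.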

Additional observations from a re-analysis of the deposited data

Results flagged for a closer look

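A difference of the SAHA effect between the lines (H1703 minus H1299, interaction term over 12 libraries, edgeR) was found for 6 of the 10 genes, beside 34.9% of all genes tested. CDH2 rose in both lines and less in H1703, with a difference of -0.53 ± 0.13 on the log2 scale (SE, adjusted p = 0.0064). SNAI1 also rose in both lines and less in H1703 (-1.01 ± 0.19, adjusted p = 0.00092). SNAI2 rose in H1299 and was not called in H1703 (-3.42 ± 0.38, adjusted p = 9.1e-06). VIM fell in H1299 and was not called in H1703 (0.72 ± 0.14, adjusted p = 0.00099). CDH1 fell in H1703 and had 8 counts with SAHA against 0 with DMSO in H1299, so its value of -5.99 ± 0.98 (adjusted p = 0.00054) depends on the prior count and gives no size. ESRP1 gave 3.40 ± 1.12 (adjusted p = 0.0301) from at most 30 counts in a library, and lost the call with the replicate block and without any 1 of 6 libraries.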

How the results depend on the processing

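Of the values of the 10 genes under the alternatives, 562 kept direction and side of the threshold, 5 came to pass it, 12 no longer did and 8 turned sign. The sign turned for 2 values that were never called. TWIST1 in H1703, 0.03 on the log2 scale, read -0.073 with total counts as the only scaling and -0.059 to 0.182 without single libraries, with -0.021 without DMSO replicate 2, -0.059 without SAHA replicate 1 and -0.057 without SAHA replicate 2. The EPCAM line difference, 0.15, ran from -0.81 to 0.96 without single libraries, and read -0.81 without H1299 DMSO replicate 2, -0.44 without H1299 SAHA replicate 3, -0.05 without H1703 DMSO replicate 2 and -0.13 without H1703 SAHA replicate 2; the cause was not tested. Members more positive in H1703 for the SAHA effect numbered 1 in place of 2 with the replicate block and with a filter of 1 CPM in 3 libraries, which drops ESRP1. The block changed no other call of the 10 genes. Leaving out single libraries gave 11004 to 11664 called genes in H1703 (members 2 to 3 higher, 2 to 3 lower), 10346 to 10894 in H1299 (3 higher, 4 lower), 12023 to 12915 between the DMSO groups (5 higher, 3 to 4 lower) and 5934 to 6635 for the line difference (1 to 3 more positive, 4 more negative). Total counts as the only scaling moved the median log2 fold change of all genes to -0.09 in H1703, against 0.02 with TMM, to 0.09 in H1299, against 0.02, to -0.17 between the DMSO groups, against 0.00, and to -0.19 for the line difference, against -0.09. The share of called genes that were higher then became 45.97% in H1703, against 51.56% with TMM, 56.89% in H1299, against 52.26%, 42.42% between the DMSO groups, against 51.61%, and 30.52% for the line difference, against 39.31%. RLE scaling moved the line difference the other way, to a median of -0.02 and a share of 45.41%. Counts of at most 56 per library limit EPCAM and ESRP1, and at most 3 CDH1 in H1299: smaller differences there were not detectable at this depth. The lengths implied by the deposited FPKM in place of canonical transcripts moved 29 of 40 levels per kilobase by more than 1 SD; this alternative was chosen after seeing the data.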

Other observations

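OVOL2, an epithelial zinc finger factor known for repressing ZEB1 in other settings, had 29, 40 and 48 counts in H1299 with SAHA against 2, 7 and 1 with DMSO, and 20, 28 and 10 counts in H1703 with SAHA against 4, 0 and 0 with DMSO. The libraries of the 2 treatments did not overlap in either line. GRHL2, the grainyhead factor that holds epithelial genes on, had 5 counts at most over any group, and RAB25, an epithelial trafficking protein, had 1 count in all 12 libraries. These genes were chosen after their values were seen.

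The length that the deposited FPKM imply for a gene exceeded the span of its locus by more than 1% for 1550 of 18475 genes (8.39%). For VIM it was 9.896 kb, beside a locus of 9335 bases and a canonical transcript of 2.154 kb. The ratio of implied to canonical length was 4.59 for VIM, 3.37 for ZEB1 and 5.58 for ZEB2, beside 0.989 for SNAI1, so the deposited FPKM put these 3 genes lower relative to SNAI1 than levels per canonical transcript do.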
